A study of Mus musculus with 6 samples.

Results

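The subject here is a set of 10 transcription factors that establish and hold the identity of pancreatic beta cells: Pdx1, Mafa, Nkx6-1, Nkx2-2, Neurod1, Isl1, Pax6, Insm1, Mnx1 and Rfx6. A factor was taken as measured when a non-control probe of the array carried one of its RefSeq transcripts, which held for 9 of the 10 factors through 12 of the 39429 probes. No level of Mnx1 was analysed here. Of the 9, 8 entered the tests across 24127 genes (16805 with a RefSeq symbol, the others array accessions without one). The only Mafa spot on the ZT0 array was marked an outlier by the scanner software, so Mafa is given with that mark and outside the tests.

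The study measured gene expression in pancreatic islets of male C57BL6 mice aged 8 weeks, fed chow and kept on a 12 h light and 12 h dark cycle. Islets were isolated with collagenase at zeitgeber time (ZT) 0, 4, 8, 12, 16 and 20, where ZT0 is lights on and ZT12 lights off. All 6 groups shared strain, sex, age, tissue and diet and differed in the time of isolation alone, per the labels. A single Cy3-labelled Agilent array stood for each time, hybridised with pooled RNA (3 to 5 mice a pool). The spread between pools of one time therefore could not be measured.

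Islets are clusters of endocrine cells in which beta cells secrete insulin, alpha cells glucagon and delta cells somatostatin. Pdx1, Nkx6-1 and Mafa act mainly in beta cells of the adult mouse islet, Pdx1 also in delta cells, and bind regulatory regions of the insulin genes and of genes for glucose uptake and secretion. Neurod1, Isl1, Pax6, Insm1, Nkx2-2 and Rfx6 are shared by several endocrine cell types and are needed for their formation or maintenance. Loss of these factors is known to let beta cells drift towards a less mature state.

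A level here is a log2 processed signal from which the array's own 75th percentile was subtracted, so that 0 is a signal equal to that percentile. Where 6 levels are given in a row, they stand in the order ZT0, ZT4, ZT8, ZT12, ZT16, ZT20. A level describes 1 probe and is not set against the level of another probe. The ZT4 array was the dimmest, with a 75th percentile signal of 506 and 66.1% of its spots well above background, against 1229 to 2090 and 70.8% to 84.4% on the other 5. The part of this in the low levels at ZT4 was not tested. No array had saturated spots, and the ZT0 array had 1743 outlier spots where the others had 166 to 247. The ZT8, ZT12, ZT16 and ZT20 arrays were read in 1 scan, and the ZT4 and ZT0 arrays in a scan each. The islet hormone genes Ins1, Ins2, Gcg and Sst were well above background on all 6 arrays.

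The design asks whether levels in islets change with the time of day. The factors other than Mafa shared one profile: low on the ZT4 and ZT12 arrays and higher on the ZT0, ZT8, ZT16 and ZT20 arrays. On the ZT12 array 8 of the 8 tested factors were at least 2-fold below the median of the other 5 arrays, against 20.3% of all genes tested. On the ZT4 array this held for 8 of 8 as well, against 21.8% of all genes. With 1 array per time these are descriptions of 6 arrays. In bulk islets, fewer cells of a type and less RNA per cell cannot be told apart.

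Pdx1 encodes the homeodomain factor that specifies the pancreas and later activates the insulin genes. From ZT0 to ZT20 its levels were -1.71, -3.86, -0.77, -4.35, -0.56 and -0.81. The ZT4 and ZT12 arrays were the lowest, ZT0 lay between, and the level at ZT16 was 13.8-fold that at ZT12.

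Nkx6-1, a homeodomain repressor that keeps alpha cell genes off in beta cells, was at 1.60, -1.17, 1.73, -2.52, 1.87 and 1.79. Its 4 high arrays spanned only 0.27 log2 units, the narrowest span of the 9 factors, and its level at ZT16 was 21.0-fold that at ZT12. Nkx2-2, a homeodomain factor of beta and other endocrine cells, was at 0.82, -1.34, 0.44, -2.93, 1.19 and 0.97. A second probe, for another Nkx2-2 transcript, had -0.01, -2.45, 0.55, -2.76, 0.44 and 0.46 on the same arrays. Both probes were lowest at ZT12 and next lowest at ZT4, and their deviations from their own means differed by -0.65 to 0.62 from array to array. Nkx6-1 and Nkx2-2 were each other's nearest factor, with a mean absolute difference of 0.27 log2 units between their mean-centred profiles over the 6 arrays.

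The promoters of Pdx1 and Nkx2-2 are shown because, of the 8 listed factors with a RefSeq promoter of GRCm38.p6 (9 windows, Mnx1 included), they were the ones that held CACGTG, the E-box bound by CLOCK and BMAL1 and also by other bHLH factors. Each window is the 250 bases before a transcript start of the RefSeq table, 5′ to 3′, with CACGTG in capitals. The Nkx2-2 window lies inside the RefSeq span of the gene, before an internal transcript start, as do that of Rfx6 and the second window of Pax6.
Pdx1, GRCm38.p6 chr5:147269847-147270096, plus strand: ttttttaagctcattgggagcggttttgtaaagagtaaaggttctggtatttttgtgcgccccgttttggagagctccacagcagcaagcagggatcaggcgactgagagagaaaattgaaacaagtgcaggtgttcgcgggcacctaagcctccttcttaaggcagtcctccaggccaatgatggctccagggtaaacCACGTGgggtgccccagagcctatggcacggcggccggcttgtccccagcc
Nkx2-2, GRCm38.p6 chr2:147186403-147186652, minus strand: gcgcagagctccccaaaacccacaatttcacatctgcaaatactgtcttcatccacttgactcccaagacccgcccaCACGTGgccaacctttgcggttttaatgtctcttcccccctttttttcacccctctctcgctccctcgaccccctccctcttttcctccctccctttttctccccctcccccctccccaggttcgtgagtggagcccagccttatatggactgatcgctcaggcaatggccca
The motif began 51 bases before the transcript start in Pdx1 and 173 bases before the internal transcript start in Nkx2-2. On either strand, 6.02% of 32851 RefSeq promoter windows of this length held CACGTG. The looser E-box CANNTG, which includes CACGTG, was in windows of 6 of the listed factors (for Pax6, in its internal window only) and in 66.2% of all windows. The letters TAATTA (a homeodomain core), TTATGTAA (the D-box of PAR bZIP factors), AGGTCA (bound by ROR and REV-ERB receptors) and TATAAA were in 0 of the 9 windows, against 4.84%, 0.819%, 14.0% and 12.4% of all windows. The factor nearest to Pdx1 in profile was Nkx6-1 (mean absolute difference 0.31 log2 units), whose window did not hold CACGTG. A match describes the letters of the window and is not evidence of binding. The Mafa and Insm1 promoters were not in the table used.

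Isl1 encodes a LIM homeodomain factor of all islet endocrine cells. It was the factor with the most precise measurement, since its probe was printed on 10 spots of each array. Over these spots the level was 2.95 ± 0.05 (SD), -0.66 ± 0.04, 1.52 ± 0.06, -2.20 ± 0.07, 2.38 ± 0.07 and 2.32 ± 0.08, with 2 of the 10 spots marked outliers on the ZT8 array and 1 on the ZT12 array. This is the error within an array and leaves out the difference between pools. Every difference between arrays exceeded it except that of ZT16 and ZT20, 0.06 log2 units. The level at ZT0 was 35.5-fold that at ZT12.

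Rfx6, a winged-helix factor needed for the formation of most islet cell types, was at 2.68, -0.66, 1.53, -1.83, 2.53 and 2.63. It was 22.7-fold higher at ZT0 than at ZT12. Its profile and that of Isl1 were the closest pair among the 9 factors, with a mean absolute difference of 0.18 log2 units. Insm1, a zinc finger factor of endocrine differentiation, was at 5.18, 2.03, 4.05, 2.29, 5.00 and 5.16. It was lowest at ZT4 rather than ZT12, and its span of 8.90-fold was the narrowest of the 8 tested factors with this scaling. That rank moved with the processing. With quantile normalization Insm1 spanned 4.01 log2 units against 3.56 for Pdx1, and with normexp background correction 3.32 against 3.02. With a gene's probes averaged, Insm1 spanned 3.15 and Pax6 2.51.

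Neurod1, a bHLH factor that binds the insulin promoter with E proteins, was at -0.12, -6.12, -0.80, -5.44, -1.16 and -0.53. The ZT4 spot was not well above background, so the level at ZT0 was at least 28.9-fold that at ZT4, against the lowest signal called well above background on that array. A dimmer Neurod1 probe had -3.91 at ZT0, -2.73 at ZT8, -4.33 at ZT16 and -3.54 at ZT20 but fell short of the background call on the ZT4 and ZT12 arrays. Both probes were lowest on those arrays, although the first was highest at ZT0 and the second at ZT8.

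Pax6, a paired-domain and homeodomain factor of all islet endocrine cells, was at -2.08, -4.94, -0.09, -3.93, 0.10 and 0.39. The ZT4 spot was not well above background, and its level at ZT20 was at least 40.4-fold that at ZT4. Unlike the other 7 tested factors it was at least 2-fold below the median of the other arrays at ZT0 too, a value shared by 19.7% of all genes. A second Pax6 probe was well above background at ZT0 alone (-5.34), where the first was low, so the probes disagreed on that array.

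Mafa encodes a basic leucine zipper factor of mature beta cells that activates insulin transcription. Its levels were 4.14 (the marked spot), 3.09, 2.28, 1.67, 2.42 and 1.80. Mafa was not low on the ZT4 array, where the deviations of the other 8 factors from their own means ran from -3.76 to -1.20 log2 units. Mafa was 0.53 above its mean there (0.10 with quantile normalization). Its level at ZT12 was 1.52-fold below that at ZT8, where the other 8 factors differed 3.38-fold to 25.0-fold. Leaving aside the marked spot, the other 5 arrays ran from 1.67 to 3.09.

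**Figure D1:**
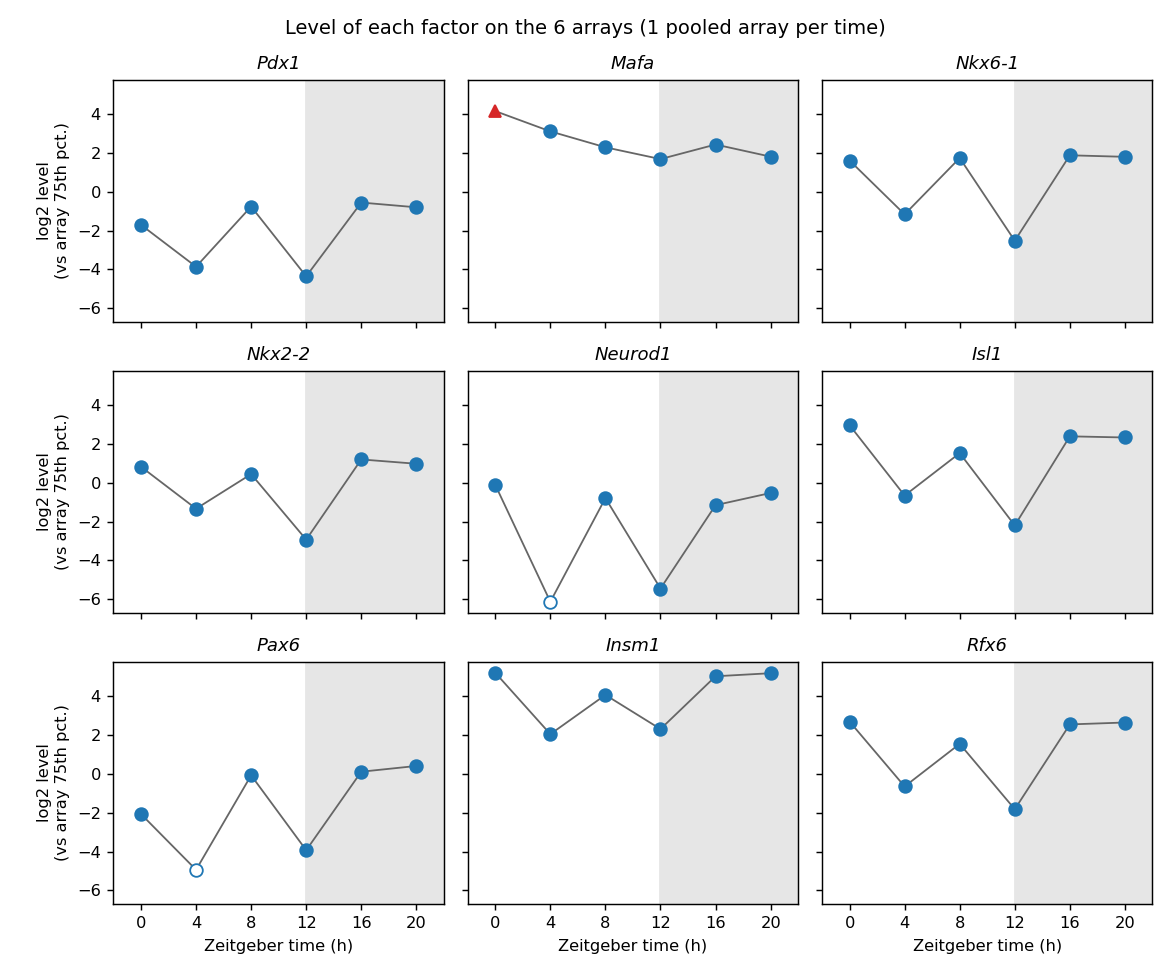
Level of each of the 9 measured factors, as log2 signal relative to the array's 75th percentile, against zeitgeber time in h, with 1 pooled array per point. Grey marks the dark phase, open circles are spots not well above background and the red triangle is the marked Mafa spot; 8 factors are low at ZT4 and ZT12, and Mafa is not low at ZT4.

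Across arrays, the deviations of the factors from their own means were read against all genes tested. The median of the 9 factors was 1.23, -1.81, 0.58, -2.79, 1.33 and 1.24. The median of all 24127 genes stayed between -0.03 and 0.06 on the same arrays. At ZT12 9 of the 9 factors lay below their own mean, and at ZT4 8 of 9 did. All 8 tested factors, but not Mafa, had both the ZT4 and the ZT12 array below the other 4, a pattern named after the values were seen and met by 18.1% of all genes. The lowest array was ZT12 for Pdx1, Mafa, Nkx6-1, Nkx2-2, Isl1 and Rfx6, as for 21.1% of all genes, and ZT4 for Neurod1, Pax6 and Insm1, as for 22.4%. With normexp background correction, Neurod1 and Pax6 were lowest at ZT12 instead, and with median scaling Mafa was lowest at ZT20. Between these arrays, ZT12 was at least 2-fold below ZT4 for Mafa, Nkx6-1, Nkx2-2, Isl1 and Rfx6 (17.9% of all genes) and at least 2-fold above it for Pax6 (15.4%).

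**Figure D2:**
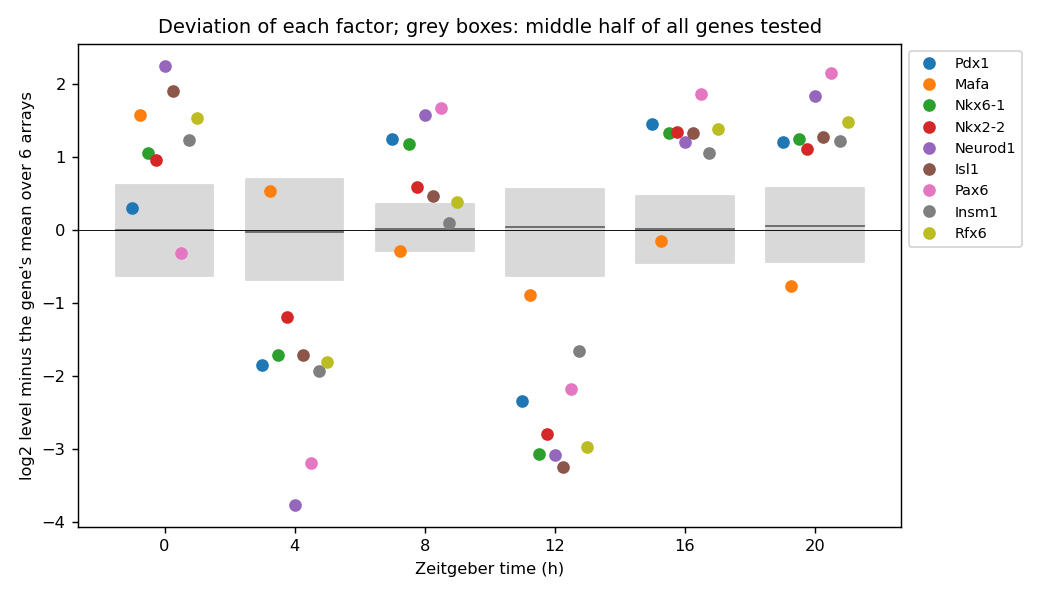
Deviation of each factor's log2 level from its mean over the 6 arrays, by zeitgeber time in h; points of 1 time are spread sideways. Grey boxes span the lower to the upper quartile of all 24127 genes and the line is their median; at ZT12 the factors lie between -3.25 and -0.89.

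High levels were less uniform. The highest array was ZT0 for Neurod1, Isl1, Insm1 and Rfx6, as for 21.5% of all genes. It was ZT16 for Pdx1, Nkx6-1 and Nkx2-2 (17.3%) and ZT20 for Pax6 (15.2%). Mafa was also highest at ZT0, through its marked spot, with ZT4 next (3.09). For Nkx6-1, Insm1 and Rfx6 the highest array changed with the scaling, and for Neurod1 it was ZT8 when its probes were averaged. Over the 4 arrays other than ZT4 and ZT12, Nkx6-1 and Nkx2-2 stayed within 2-fold, as did 35.4% of all genes. At least 2-fold above the median of the other 5 arrays were 4 of 8 tested factors at ZT0 (Neurod1, Isl1, Insm1 and Rfx6; 16.8% of all genes), 1 at ZT8 (Pax6; 8.50%), 2 at ZT16 (Pdx1 and Pax6; 10.7%) and 3 at ZT20 (Pax6, Insm1 and Rfx6; 12.8%). These counts rested on which arrays formed the median. Without the ZT0 array they were 4 at ZT8, 8 at ZT16 and 8 at ZT20. Without the ZT4 or without the ZT12 array they were 1 at ZT0, 0 at ZT8, 1 at ZT16 and 1 at ZT20. The counts of 8 at ZT4 and ZT12 were the same in each of these.

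Within the shared scan, the step across lights off could be read without a change of scan. From ZT8 to ZT12 the 8 tested factors were 3.38-fold (Insm1) to 25.0-fold (Neurod1) lower, and 8 of 8 passed 2-fold, against 19.2% of all genes. From ZT12 to ZT16 all 8 were at least 2-fold higher, against 23.7% of all genes, with folds from 6.56 for Insm1 to 23.9 for Isl1. Between ZT16 and ZT20, 8 of 8 lay within 2-fold, as did 90.6% of all genes, so their likeness there is that of most genes. Mafa stayed within 2-fold over each of these steps, except that its ZT12 level was 1.07 log2 units below ZT8, just past 2-fold, with quantile normalization and in the authors' deposited table. The ZT4 array, the other low one, had a scan to itself.

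The second question was whether the factors followed a 24 h rhythm. Each gene was given a limma fit of a 24 h cosine, and the cosine terms were tested across all 24127 genes. Of the 8 tested factors, 0 passed, where 0.00% of all genes passed. At an unadjusted limma p under 0.05 the counts were 0 of 8 factors and 966 genes (4.00%). An F test without shrinkage also called 0 genes, with 679 at an unadjusted p under 0.05 and 0 factors among them. Fitted peak minus trough ran from 1.99 ± 1.59 (SE) log2 units for Pdx1 to 3.61 ± 2.32 for Neurod1, with fitted peaks from ZT17.7 for Pax6 to ZT21.4 for Isl1. Insm1 had 2.70 ± 1.18 and Rfx6 3.38 ± 1.53, the largest values relative to their errors, with limma adjusted p of 0.754 each. Without the ZT8 array peak minus trough was over 1.5 times as large for each factor, from 4.62 for Insm1 to 8.10 for Neurod1. It was 1.47 for Pax6 without the ZT4 array and 2.22 for Isl1 without the ZT12 array.

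The share of a factor's variance that the cosine took was 0.21 for Pdx1, 0.26 for Nkx6-1 and 0.52 for Insm1. In the exact permutation test of that share over all 720 orders of the arrays, the p values of the 8 factors ran from 0.433 for Rfx6 to 0.633 for Pdx1, and the smallest p the test can give is 0.0167. Mafa, with its marked spot kept, had a peak minus trough of 1.83 ± 0.88 at ZT1.42 and a limma adjusted p of 0.742. With the ZT8 array left out, 8 of 8 factors had an unadjusted limma p under 0.05, as had 16.7% of all genes, and 0 passed after adjustment. With scan in the fit, the ZT0 and ZT4 arrays, each alone in its scan, no longer bore on the cosine. That fit rested on the ZT8, ZT12, ZT16 and ZT20 arrays, with 1 residual degree of freedom. Its peak minus trough ran from 2.96 ± 1.71 for Insm1 to 6.38 ± 3.35 for Neurod1.

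Dark-phase arrays (ZT12, ZT16 and ZT20) were also compared with light-phase arrays (ZT0, ZT4 and ZT8). Here 0 of 8 factors passed the limma test, where 0.00% of all genes passed, and 0 of 8 had an unadjusted p under 0.05, where 784 genes (3.25%) did. Without the ZT0 and ZT12 arrays, 2 of 8 factors (Insm1 and Rfx6) and 15.9% of all genes were under 0.05 before adjustment, and 0 passed after it. Light and dark levels overlapped for each of the 9 factors, while they did not overlap for 9.28% of all genes. Dark minus light ran from -0.43 ± 1.41 (SE) log2 units for Isl1 to 1.22 ± 1.51 for Pax6. The sign rested on single arrays: without ZT12 it was positive for all 8 factors (1.08 for Isl1 to 2.61 for Pax6), and without ZT4 it was negative for all 8 (-1.92 for Neurod1 to -0.07 for Pax6). Leaving out ZT0, ZT8, ZT16 or ZT20 also turned the sign of some factors. Mean levels in Rfx6 were 1.18 ± 1.69 (SD, n = 3) in the light and 1.11 ± 2.54 in the dark. Each phase held 1 low array, and the errors are too wide to show that light and dark levels were alike. For Mafa the exact permutation p was 0.20, two-sided, with a difference of -1.21, and this test cannot go below 0.10. With scaling by the median of all probes, the median of all genes itself moved by up to 0.29 log2 units (ZT12), and the median deviation of the 8 tested factors was then -1.59 at ZT4 and -2.62 at ZT12.

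**Figure D3:**
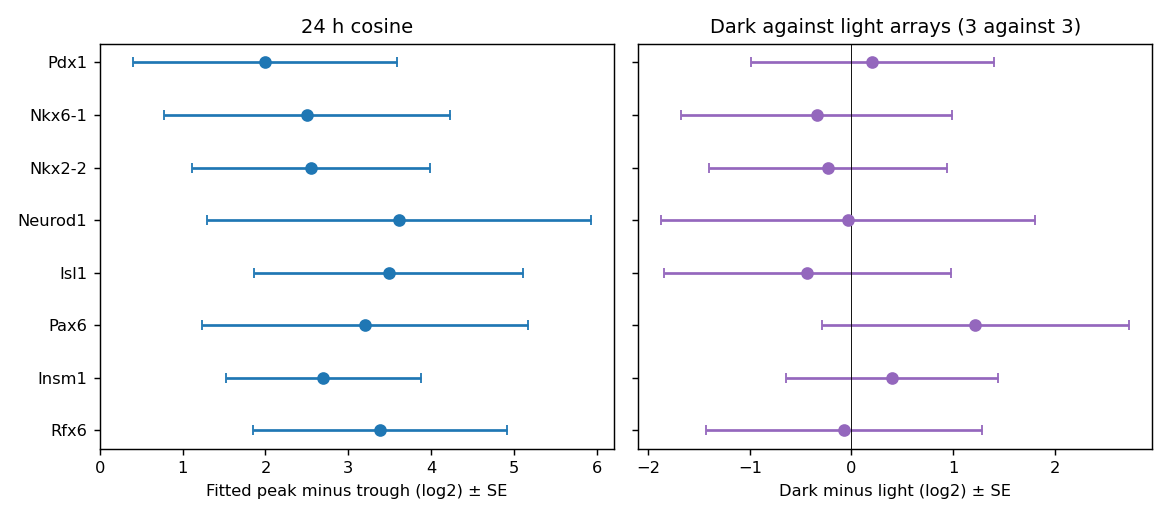
Left, fitted peak minus trough of the 24 h cosine with its SE for the 8 tested factors, in log2 units. Right, dark minus light difference with its SE, 3 arrays against 3; every interval of 1 SE on the right spans 0 and 0 factors passed either test.

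The factors also differed from one another on the same array, after the median deviation of the 9 was taken away. Rfx6 stayed closest to the others (SD 0.21 over the 6 arrays), then Nkx2-2 (0.30), Nkx6-1 (0.31), Isl1 (0.37), Pdx1 (0.55) and Insm1 (0.56). Mafa moved most (SD 1.79): it was 2.33 above the median factor at ZT4, 1.89 above at ZT12, 1.47 below at ZT16 and 2.01 below at ZT20. Relative to the rest, Mafa was thus high on the arrays where they were low, as any gene that varied less would be. Its deviation from its own mean was 0.53 at ZT4 but -0.89 at ZT12, its lowest array. Pax6 was 1.55 below the median factor at ZT0 and 1.38 below at ZT4, and 0.53 to 1.09 above it on the other 4 arrays. Neurod1 was 1.96 below at ZT4, where its spot was not well above background, and 1.01 above at ZT0. Insm1 was 1.12 above at ZT12. By group, the 3 measured factors mainly of beta cells (Pdx1, Mafa and Nkx6-1) had a median deviation of -2.34 at ZT12 and the 6 shared factors -2.88. Without Mafa, the 2 tested ones (Pdx1 and Nkx6-1) had -2.71.

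**Figure D4:**
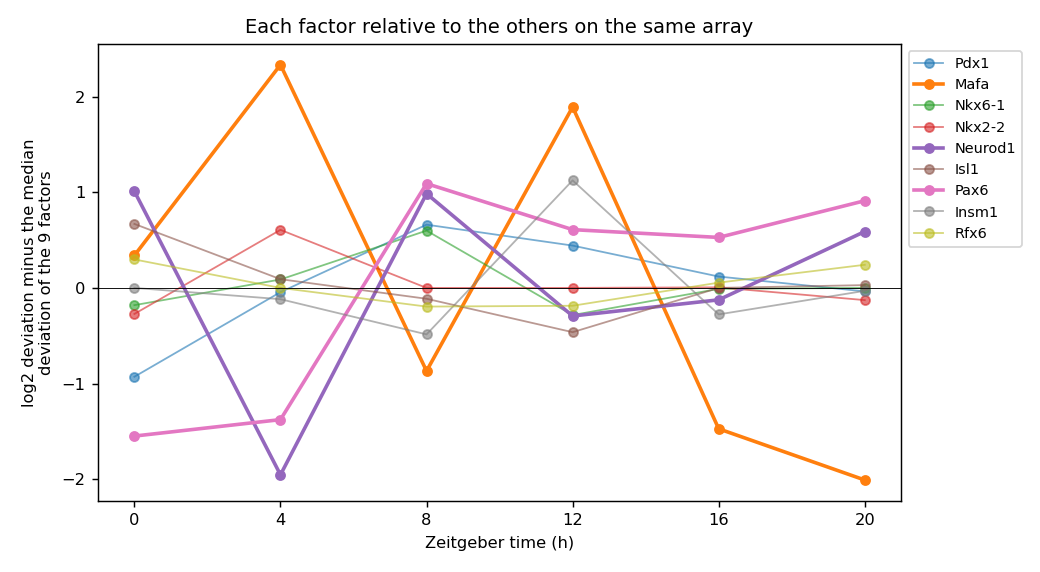
Deviation of each factor from its own mean, less the median deviation of the 9 factors on the same array, in log2 units by zeitgeber time in h. Mafa, Pax6 and Neurod1 (thick lines) move most; the other 6 stay within 1.12 log2 units of 0.

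Other genes of the beta cell programme were read from lists. Of 20 genes known as targets or partners of these factors, 19 were tested, and 14 had ZT4 and ZT12 below the other 4 arrays, against 18.1% of all genes (15 with quantile normalization and in the authors' deposited table, 12 with median scaling). At ZT12, 14 of the 19 were at least 2-fold below the median of the others (20.3% of all genes), with a median deviation of -2.40, and at ZT4, 13 were (21.8%), with -1.27. Slc2a2, the glucose transporter, chosen after its values were seen, was at 4.35, 0.89, 3.80, -0.40, 3.99 and 4.07, close in shape to the factors. The insulin genes were not: relative to the array's 75th percentile, Ins1 and Ins2, at 8.29 and 8.75, were highest at ZT4. At ZT12 Ins1 was at 6.99, the same as at ZT8. That percentile was a signal of 506 on the dim ZT4 array, against 1229 to 2090 on the others. Its part in the high insulin levels at ZT4 was not tested. The amylin gene Iapp ran from 6.91 at ZT12 to 8.56 at ZT0, and Cpe, a prohormone processing enzyme, from 5.03 at ZT12 to 8.31 at ZT0. Reference genes had a median deviation of 0.81 on the ZT4 array and 0.90 on the ZT0 array, but of 0.01 and 0.50 with quantile normalization, and their part in these levels was not tested. In the cosine test 0 of the 19 genes passed, and 0 had an unadjusted limma p under 0.05.

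Of 17 tested transcription factors of alpha, delta and other islet cells or of the HNF and FOXA families, 11 had ZT4 and ZT12 as their lowest arrays (9 with median scaling; 18.1% of all genes), and the median deviation was -0.84 at ZT4 and -1.92 at ZT12. Foxa2, which opens chromatin at endodermal genes, was at 3.57 at ZT0, 0.97 at ZT4 and -1.14 at ZT12. Hnf4a, shared with liver and gut, was highest at ZT4 (3.82), and Hhex, of delta cells, and Tshz1 varied less, from 0.76 to 2.11 and from 1.01 to 2.40. Of these 17, 0 passed the cosine test and 2 (Pou3f4 and Foxa1, named after their values were seen) had an unadjusted limma p under 0.05. Among 19 tested cofactors, such as the chromatin regulators Smarca4, Smarca2, Kdm1a and Ncoa6, 5 had ZT4 and ZT12 lowest, beside 18.1% of all genes. This count moved with the scaling, to 7 with quantile normalization and in the authors' deposited table and to 2 with median scaling. List medians ran from -0.10 to 0.38, and the ZT4 median was -0.09, or -0.43 with quantile normalization and 0.15 with median scaling. Smarca4, an ATPase of chromatin remodelling, was at 4.73 at ZT4 and 4.03 at ZT12, and Kdm1a, a histone demethylase, at 3.53 and 2.81. Ncoa6 ran from 1.85 to 3.04 and Smarca2 from 2.12 to 2.81.

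Markers of the other cells of the preparation moved with the factors or against them. Alpha cell markers had medians of -1.12 at ZT4 and -2.09 at ZT12, with Gcg at 7.83 at ZT0 and 4.20 at ZT12, and delta and PP cell markers -1.37 and -2.89, with Sst at 6.75 at ZT0 and 1.72 at ZT12. Lymphocyte markers ran the other way. All 12 were well above background on each array, 9 of 12 had ZT4 and ZT12 as their highest arrays (21.3% of all genes), and their summed level was 380 times the 75th percentile at ZT4 and 271 times at ZT12, against 16.2 to 94.2 times on the other arrays. Macrophage markers had 5 of 8 genes with these arrays highest and sums of 300 at ZT4 and 173 at ZT12, against 18.6 to 68.5 elsewhere. The part of either in the levels of the factors was not tested.

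Stromal medians were 0.78 at ZT12, -1.56 at ZT16 and, on the ZT4 array, 0.59 or, quantile-normalized, -0.02, and endothelial medians were -0.56 at ZT4 and 0.36 at ZT12. Acinar markers were at -1.27 at ZT12, with 11 of 11 lowest there (21.1% of all genes), and duct markers at -1.91. At ZT4 the acinar median was 0.51, but -0.28 with quantile normalization and in the authors' deposited table, and the duct median was -0.19, or 0.04 with median scaling. The intestinal genes Fabp2, Spink4 and Lgals4 were highest at ZT4, at levels of 4.55, 6.80 and 6.90, where the hepatocyte gene Alb was at -4.34. Alb and Fgb, named after their values were seen, were highest at ZT20, at 6.40 and 3.66. On the ZT12 array, then, exocrine and endocrine lists were low together. Their part in the result was not tested.

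**Figure D5:**
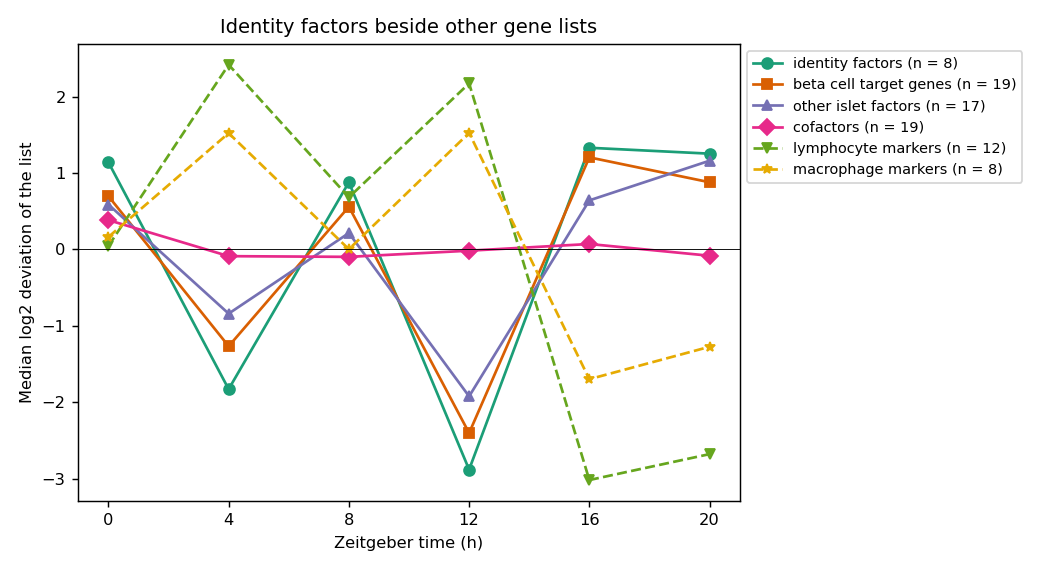
Median deviation of each gene list from the genes' own means, in log2 units by zeitgeber time in h, for the 8 tested identity factors, their target genes, other islet factors, cofactors, and lymphocyte and macrophage markers. The factors are at -2.88 at ZT12, where the lymphocyte markers are at 2.17.

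The genes most like the mean profile of the 9 factors were taken from 13837 genes with a symbol that were well above background on all 6 arrays, by the mean absolute difference over the 6 arrays. The nearest was Vsnl1, a neuronal calcium sensor (0.09 log2 units), then Cttnbp2 (0.12), Tm4sf4, a tetraspan membrane protein (0.14), Slc24a2, a sodium, potassium and calcium exchanger (0.15), Fam174b (0.16) and Tpd52l1 (0.16). Marchf4, a ubiquitin ligase (0.17), Cacna2d1, a calcium channel subunit (0.17), Slc7a8, an amino acid transporter (0.17), and Gpc4, a cell surface proteoglycan (0.18), followed. Vsnl1 deviated by -1.80 at ZT4 and -2.30 at ZT12, beside -1.85 and -2.47 for the mean of the factors. Against the mean of the other 8, Nkx6-1 differed by 0.27 and Mafa by 1.63 log2 units. Of the 13837 genes, 0.369% lay nearer to the mean of all 9 factors than Nkx6-1 lay to the mean of the other 8. That share was 0.470% to 1.36% for Pdx1, Nkx2-2, Isl1, Insm1 and Rfx6. It was 12.4% for Neurod1, 17.1% for Pax6 and 61.0% for Mafa. The genes and the factors were thus set against slightly different mean profiles.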

How the data were processed

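RNA of 6 islet pools was hybridised to 1-colour arrays. Scanner files came from Feature Extraction 11.0.1.1 (Agilent), per the file headers, with a processed signal that is a linear, background-subtracted and detrended intensity; other deposited columns hold flags of 0 or 1. A deposited table of 30170 probes gives the authors' log2 values; its columns had medians of 8.62 to 8.63 and a shared maximum of 18.4; each correlated with its own array at r of 0.9987 to 0.9998, and the steps behind it were not stated.

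From these, control spots were dropped, spots of a probe averaged on the log2 scale, and the array's 75th percentile subtracted. Accessions gave symbols through RefSeq of GRCm38.p6 for 27234 of 39429 probes. A probe was tested when well above background on at least 3 arrays and on no array an outlier in all its spots; the probe of highest mean stood for a gene, and a probe without a symbol stood under its accession, which left 24127 genes. A 24 h cosine (3 residual degrees of freedom) and dark against light phase were fitted with limma 3.58.1 in R 4.3.3, tested on simulated data, with Benjamini-Hochberg adjustment over all genes at 0.05.

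The genes named were the 10 factors, up to 4 genes of highest level in each list, and the 10 genes of most like profile; others are said to be chosen after their values were seen. The members and lists were chosen with earlier results of these data known. Alternatives were the scaling, background correction, filters, probe choice, arrays and scan in the fit, period and shrinkage. The number of arrays limits the precision.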

Additional observations from a re-analysis of the deposited data

How the results depend on the processing

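No paired analysis was possible because each time was 1 array and the labels carry no replicate pairs. Under every alternative run, 0 genes and 0 factors passed the cosine or the phase test, and member adjusted limma p values ran from 0.240 to 1.0 for both tests together. The counts of 8 factors at least 2-fold low at ZT4 and ZT12 were unchanged except where the stricter filter left 6 factors to count (6 of 6). The counts of high factors moved. At ZT0 it was 1 instead of 4 with quantile normalization and 1 in the authors' values. At ZT16 it was 5 instead of 2 with median scaling and 1 with probes well above background on all 6 arrays, which also left 0 at ZT8. With ZT0, ZT4 or ZT12 left out of the median, chosen after the data were seen, the counts were 1 at ZT0, 0 to 4 at ZT8, 1 to 8 at ZT16 and 1 to 8 at ZT20. Deviations from a factor's own mean turned sign for Pax6 at ZT0, from -0.32 to 0.77 when its probes were averaged, for Mafa at ZT8, from -0.29 to 0.05 with quantile normalization and in the authors' values, and for Insm1 at ZT8, from 0.09 to -0.08 with median scaling. Genes at an unadjusted p under 0.05 in the cosine test numbered 348 to 4025 with 1 array left out, and in the phase test 349 to 3731. Of 126 refitted peak times, 1 moved by more than 6 h (Pax6 with scan in the fit, by 6.82 h). That count leaves out fits with another period. It includes alternatives that changed only the filter or the shrinkage, where the fitted peak could not move. With scan in the fit, the cosine rested on the ZT8, ZT12, ZT16 and ZT20 arrays alone. Its peaks ran from ZT23.2 for Insm1 to ZT0.83 for Neurod1, outside the times of those arrays. The main fit over 6 arrays had peaks from ZT17.7 to ZT21.4.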

Other observations

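Factors of pancreatic progenitors were measured beside the identity factors. Neurog3, which starts endocrine differentiation in the embryo, had, in the order ZT0, ZT4, ZT8, ZT12, ZT16, ZT20, levels of 0.62, -1.76, -1.17, -2.92, 0.14 and 0.23. As in the 8 tested identity factors, ZT4 and ZT12 were its lowest arrays. At ZT8 it deviated by -0.36 from its own mean, where those factors were above theirs (Insm1 by only 0.09). Lmx1b ran from -1.29 at ZT0 to 1.61 at ZT16, Gata6 from -2.31 at ZT12 to -0.18 at ZT0, and Fev, of serotonergic neurons and endocrine precursors, from -1.80 at ZT4 to -0.20 at ZT16. Of 8 tested progenitor factors, 4 had ZT4 and ZT12 as their lowest arrays (2 with quantile normalization, with median scaling and in the authors' deposited table; 18.1% of all genes), and 0 passed the limma cosine test or had an unadjusted p under 0.05.

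Among 15 tested core clock genes, 6 had ZT4 and ZT12 as their lowest arrays (4 in each of those scalings; 18.1% of all genes). In the limma cosine test 0 passed, with 2 (Dbp and, named after its values were seen, Nr1d1) at an unadjusted p under 0.05 (4.00% of all genes). In the limma test of dark against light 0 passed, with 5 of the 15 at an unadjusted p under 0.05 (3.25% of all genes). Cry2, a clock repressor, had 1.94 at ZT4 and 1.40 at ZT12, against 2.63 to 3.64 on the other arrays. Dbp, a clock output factor, stood at 3.55 to 4.05 from ZT0 to ZT12, and at 1.99 at ZT16 and 1.16 at ZT20. Per1 ran from 1.84 at ZT12 to 3.77 at ZT16, and Tef from 2.50 at ZT20 to 4.03 at ZT4.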
